A study of Mus musculus with 12 samples.

Results

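Over 12 libraries, RNA levels were followed for 10 genes linked to the acute-phase response to IL-6 family cytokines. The signal behind these levels was not tested. The genes were Lcn2, Cebpd, Cebpb, Steap4, Serpina3n, Stat3, Socs3, Osmr, Il6st and Slc39a14. Their rows were taken by symbol from a table of read counts on 21930 genes, each of the 10 symbols was found once, and all 10 passed the filter on low counts in each comparison. The genes were chosen by their levels in AL + NaIO3 against AL + PBS and against IF + NaIO3, so differences between those groups are given here as a description, with no p for a member, and the counts of members called in those contrasts are not evidence about them. Tests of the 10 genes were made in the other 2 comparisons, IF + PBS against AL + PBS and IF + NaIO3 against IF + PBS, although each of these shares a group with the contrasts that chose the genes.

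The libraries, 3 in each of 4 groups, came from male wild-type C57BL/6J mice that were 8 weeks old when the diets began. AL mice ate ad libitum, and IF mice fasted every other day, with 24 h of fasting followed by 24 h of feeding. After 12 weeks on the diet, which was then continued, each mouse received a single intraperitoneal injection of PBS or of NaIO3 at 25 mg/kg, and tissue was taken 7 days later. NaIO3 is an oxidant that damages the retinal pigment epithelium (RPE) and then the photoreceptors. The question for these genes is how far their levels depended on the injection and on the diet before it.

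IL-6 family cytokines bind receptors that signal through gp130, the product of Il6st, alone or paired with a second chain such as the oncostatin M receptor Osmr. JAK kinases attached to these receptors phosphorylate STAT3, which enters the nucleus and switches on target genes, among them Socs3, whose product shuts the receptor complex down again. The transcription factors C/EBPβ and C/EBPδ rise with STAT3 and NF-kB in the liver's acute-phase response, and in the retina the same axis is known from Müller glia and astrocytes that react to injury. Lcn2 and Serpina3n are secreted products of such reactive glia, and Steap4 and Slc39a14 handle iron, copper and zinc.

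Stretches of 30 bases from Lcn2, Socs3 and Steap4 are shown because these were the members with a match to a motif of the pathway in the 250 bases before the RefSeq transcript start on GRCm38.p6. They are printed 5′ to 3′ on the strand of the gene, at chr2:32387937-32387966 (minus strand), chr11:117969502-117969531 (minus strand), and chr5:7960345-7960374 and chr5:7960374-7960403 (both plus strand). Capitals mark the match, on either strand, to the STAT motif TTCNNNGAA or the C/EBP motif TTGCNNAA, and the NF-kB consensus was also searched. No 2 matches overlapped.
Lcn2, C/EBP match: agcccttcctgTTGCTCAAccttgcacagt
Socs3, STAT match: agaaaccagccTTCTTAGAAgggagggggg
Steap4, STAT match: aggttgaactcTTCCCGGAAactttgcttc
Steap4, C/EBP match: cacagctcctcTTGCGAAAtcaagcgggcc

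The gene spans of the deposited table do not all begin where these RefSeq transcripts do. The RefSeq start lay 513 bases inside the deposited span of Lcn2, 681 bases inside that of Socs3, 656 inside that of Osmr and 15 inside that of Steap4. The searched windows of Lcn2, Socs3 and Osmr, and so the Lcn2 and Socs3 matches, are therefore within the deposited gene and upstream only of the shorter RefSeq transcript, while the Steap4 matches lie before both starts. Steap4 also held 2 NF-kB matches (GGGATGCCCC and GGAAAACCCC). The windows of Cebpb, Serpina3n, Stat3, Osmr and Il6st held none of the 3 motifs, so a match to any of them was found in 3 of the 8 members that RefSeq entries covered, and entries for Cebpd and Slc39a14 were not used here. Among 32851 RefSeq windows of the same length, 7.02% held the STAT motif, 9.56% the C/EBP motif and 7.25% the NF-kB consensus, and 22.1% held at least 1 of the 3. A match describes the letters of this window and is not a measured binding site.

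The libraries held between 26364665 and 43046950 counts, and the limit that 0 counts set, 3 counts, was 0.0708 to 0.107 CPM (counts scaled to a common library total) by counting error alone. CPM are given throughout after TMM scaling in edgeR (trimmed mean of M-values). The labels name the tissue RPE, choroid and sclera and the methods name eye cups, yet the 10 photoreceptor genes summed to between 19030 and 62430 CPM against 756 to 2455 CPM for the 10 RPE genes, so neural retina was present in each library. AL + NaIO3 replicate 3 stood apart from its group. Its 13 macrophage and microglia genes summed to 1026 CPM, against 283 and 199 CPM in AL + NaIO3 replicates 1 and 2 and 86.1 to 109.5 CPM in the other 9 libraries. Its 6 stroma genes summed to 1301 CPM, where the other 11 libraries lay between 64.8 and 204 CPM, and its photoreceptor sum of 19030 CPM was the lowest of the 12. In AL + NaIO3 replicate 2, 5 corneal epithelium genes summed to 594 CPM, the highest of the 12. Log2 fold changes and list medians of AL + NaIO3 against AL + PBS are therefore given with and without replicate 3, and in bulk tissue fewer cells of a type cannot be told apart from less RNA per cell. The part of these cell type differences in the results below was not tested.

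Across the group of genes, AL + NaIO3 held the highest group mean of each of the 10 members. In 8 of them all 3 AL + NaIO3 libraries lay above all 9 others, the exceptions being Il6st and Slc39a14. Among 16053 genes with enough counts, 4.46% lay above the other 9 libraries in this way, and nothing is read from the difference because these levels chose the members. All 10 members were highest in AL + NaIO3 replicate 3, while the lowest AL + NaIO3 library was replicate 1 for 8 members and replicate 2 for Lcn2 and Cebpb.

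**Figure D1:**
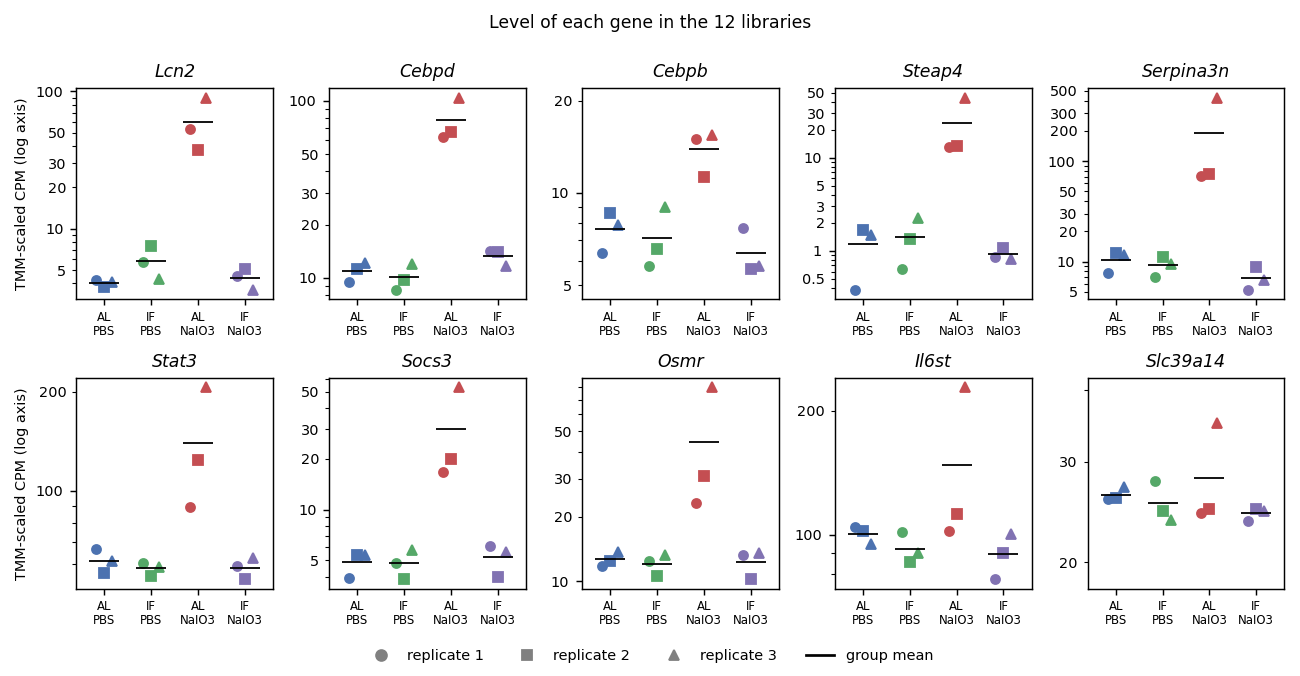
TMM-scaled CPM (log axis, a scale of its own per gene) of the 10 genes in the 3 libraries of each group, with symbols for the replicate number and a line at the group mean. The AL + NaIO3 libraries lie above the other 9 for 8 genes, and replicate 3 is the highest library for all 10.

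Of the receptors, Il6st (chr13:112464070-112510086 on GRCm38) encodes the shared signalling chain gp130. Its level was 104, 102 and 95.1 CPM in AL + PBS, 101, 85.8 and 90.1 CPM in IF + PBS, 102, 112 and 228 CPM in AL + NaIO3, and 77.9, 90.4 and 100.4 CPM in IF + NaIO3 (replicates 1, 2 and 3). Only AL + NaIO3 replicate 3 was far from the rest, at 2.13 times the mean of the other 2 libraries of its group. Against AL + PBS, the log2 fold change of AL + NaIO3 was 0.56 ± 0.29 (SE) and became 0.094 ± 0.10 without that library.

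Osmr (chr15:6813577-6874969) encodes the oncostatin M receptor, which pairs with gp130. It measured 11.8, 12.4 and 13.7 CPM in AL + PBS and 12.4, 10.5 and 13.3 CPM in IF + PBS. In AL + NaIO3 it measured 23.2, 31.0 and 80.0 CPM, and in IF + NaIO3 13.3, 10.2 and 13.6 CPM. The AL + NaIO3 libraries did not overlap any other group, and the log2 fold change against AL + PBS was 1.83 ± 0.43 (SE), or 1.10 ± 0.17 without replicate 3. The IF + NaIO3 mean was 0.978 times the AL + PBS mean.

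Stat3 (chr11:100885098-100939540), the transcription factor of the pathway, was read at 66.7, 56.1 and 61.3 CPM in AL + PBS and at 60.5, 55 and 58.7 CPM in IF + PBS. The AL + NaIO3 libraries read 89.2, 124 and 206 CPM, and the IF + NaIO3 libraries 58.9, 53.9 and 62.4 CPM. Each AL + NaIO3 library was above the highest of the other 9, by 1.34 times at the least. Their mean was 2.28 times that of AL + PBS, with a log2 fold change of 1.20 ± 0.28 (SE), and 0.80 ± 0.15 when replicate 3 was left out. The annotation of Stat3 overlaps that of Stat5a, so reads in the overlap cannot be assigned with certainty. Stat5a itself lay between 6.45 and 13.5 CPM in AL + NaIO3 and between 4.14 and 6.76 CPM in the other groups.

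Socs3 (chr11:117966079-117970047), the feedback inhibitor, whose STAT match shown above lies within this span, measured 3.91, 5.36 and 5.37 CPM in AL + PBS and 4.80, 3.87 and 5.76 CPM in IF + PBS. In AL + NaIO3 it measured 16.7, 20 and 53.2 CPM, and in IF + NaIO3 6.07, 3.99 and 5.58 CPM. The lowest AL + NaIO3 library was 2.75 times the highest of the other 9. Against AL + PBS the log2 fold change was 2.63 ± 0.45 (SE), and 1.91 ± 0.21 without replicate 3, so replicate 3 raised the fold by more than the SE of either value.

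Cebpd (chr16:15887286-15891031) encodes C/EBPδ, a factor that is scarce in resting cells and induced through STAT3. It was read at 9.46, 11.3 and 12.2 CPM in AL + PBS, and at 8.58, 9.73 and 12 CPM in IF + PBS. The AL + NaIO3 libraries read 62.5, 66.8 and 104 CPM, and the IF + NaIO3 libraries 14.1, 14.0 and 11.6 CPM. The AL + NaIO3 libraries lay at least 4.42 times above any other library, and their spread was narrow for this gene set, with replicate 3 at 1.61 times the mean of the other 2. The log2 fold change against AL + PBS was 2.84 ± 0.23 (SE), or 2.56 ± 0.14 without replicate 3. Spidr, which overlaps Cebpd in the annotation, read 6.97, 6.79 and 14.8 CPM in AL + NaIO3 and 4.26 to 6.99 CPM in the other groups.

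Cebpb (chr2:167688915-167690418), for the related factor C/EBPβ, differed less. It measured 6.35, 8.60 and 7.86 CPM in AL + PBS, 5.79, 6.58 and 8.99 CPM in IF + PBS, 15.0, 11.2 and 15.4 CPM in AL + NaIO3, and 7.68, 5.65 and 5.75 CPM in IF + NaIO3. The lowest AL + NaIO3 library was 1.25 times the highest of the others, and replicate 3 was only 1.18 times the mean of replicates 1 and 2. Its log2 fold change against AL + PBS was 0.87 ± 0.22 (SE), and 0.78 ± 0.21 without replicate 3. Its gene overlaps the annotation of Tmem189, so here too reads in the overlap cannot be assigned with certainty. Tmem189 lay between 24.1 and 40.4 CPM in AL + NaIO3 and between 22.7 and 31.1 CPM in the other groups.

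Lcn2 (chr2:32384633-32388252) encodes lipocalin-2, a secreted protein that binds iron-carrying siderophores. It was read at 4.27, 3.75 and 4.13 CPM in AL + PBS, at 5.70, 7.45 and 4.34 CPM in IF + PBS, at 53.2, 37.1 and 89.8 CPM in AL + NaIO3, and at 4.55, 5.10 and 3.62 CPM in IF + NaIO3. The AL + NaIO3 mean of 60.1 ± 27.0 CPM (SD, n = 3) was 14.8 times the AL + PBS mean of 4.05 ± 0.27 CPM. As a log2 fold change this was 3.90 ± 0.33 (SE), and 3.48 ± 0.18 without replicate 3. Lipocalin-2 is also a granule protein of neutrophils, and 9 of the 12 neutrophil genes were below 1 CPM in all 12 libraries, with Ly6g and Mpo at no more than 2 counts in any library. The summed level of the neutrophil list was 4.85 to 7.93 CPM in AL + NaIO3 and 1.58 to 4.49 CPM in the other groups. Most of the AL + NaIO3 sum came from Csf3r, the receptor for G-CSF. Csf3r was the 1 gene of the list that lay above the other 9 libraries in all AL + NaIO3 libraries. It read 3.47, 4.19 and 6.31 CPM there, against at most 2.08 CPM. The part of neutrophils in the Lcn2 level was not tested.

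Serpina3n (chr12:104406729-104414329), a secreted serine protease inhibitor made by reactive astrocytes, was the member in which replicate 3 stood farthest from its group. It measured 7.73, 12 and 11.5 CPM in AL + PBS, 7.07, 11.1 and 9.36 CPM in IF + PBS, 71.2, 74.3 and 429 CPM in AL + NaIO3, and 5.27, 8.76 and 6.61 CPM in IF + NaIO3. Replicate 3 was 5.90 times the mean of replicates 1 and 2, which themselves were 6.83 and 7.13 times the AL + PBS mean. The log2 fold change against AL + PBS fell from 4.21 ± 0.75 (SE) to 2.80 ± 0.19 when replicate 3 was left out. Serpina3n belongs to a cluster of similar genes, and how reads shared between copies were counted is not given in the sources used here.

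Steap4 (chr5:7960457-7982213) encodes a metalloreductase for iron and copper. It was read at 0.385, 1.68 and 1.47 CPM in AL + PBS, from 12, 71 and 45 counts. In IF + PBS it read 0.640, 1.33 and 2.26 CPM, in AL + NaIO3 13.1, 13.4 and 44.2 CPM, and in IF + NaIO3 0.863, 1.07 and 0.827 CPM. The AL + NaIO3 libraries were at least 5.79 times any other library. The log2 fold change against AL + PBS was 4.31 ± 0.69 (SE), and 3.47 ± 0.47 without replicate 3.

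Slc39a14 (chr14:70303469-70351425), the ZIP14 transporter for zinc, iron and manganese, is an acute-phase gene of the liver. Its levels were 25.8, 25.9 and 27.1 CPM in AL + PBS, 27.8, 24.6 and 23.7 CPM in IF + PBS, 24.4, 24.8 and 34.9 CPM in AL + NaIO3, and 23.7, 24.8 and 24.6 CPM in IF + NaIO3. Replicates 1 and 2 of AL + NaIO3 lay below all 3 AL + PBS libraries and replicate 3 above them. Its log2 fold change was 0.10 ± 0.17 (SE), and -0.094 ± 0.12 without replicate 3, the only member whose direction turned.

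**Figure D2:**
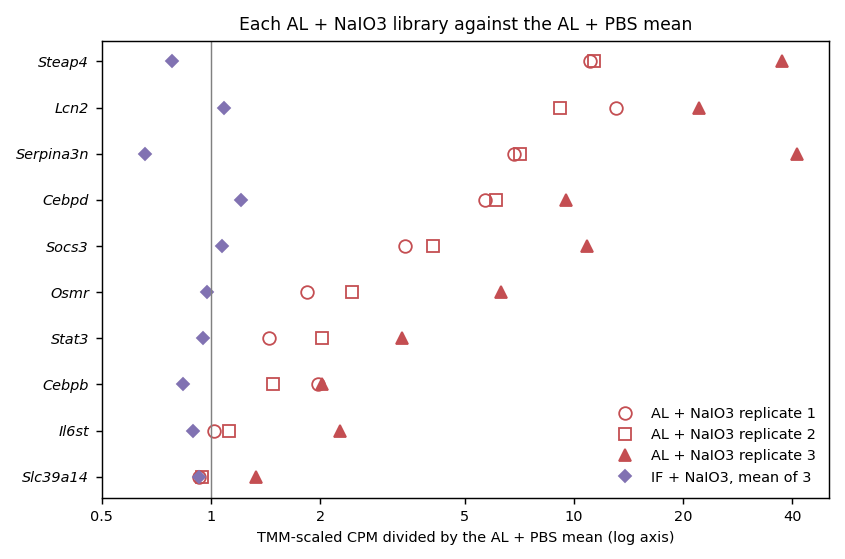
Level of each gene in AL + NaIO3 replicates 1, 2 and 3 and the IF + NaIO3 mean (diamonds), divided by the AL + PBS mean on a log axis. Replicates 1 and 2 lie close together for most genes and replicate 3 to their right, between 1.33 times (Slc39a14) and 41.2 times (Serpina3n) the AL + PBS mean.

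The spread of the AL + NaIO3 group thus differed between members. The ratio of replicate 3 to the mean of replicates 1 and 2 was 5.90 for Serpina3n, 3.34 for Steap4, 2.95 for Osmr and 2.90 for Socs3. It was 2.13 for Il6st, 1.99 for Lcn2 and 1.94 for Stat3, and lowest for Cebpd (1.61), Slc39a14 (1.42) and Cebpb (1.18). Without replicate 3, the mean of the other 2 libraries was 11.2 times the AL + PBS mean for both Lcn2 and Steap4, 6.98 times for Serpina3n, 5.90 times for Cebpd and 3.76 times for Socs3. It was 2.14 times for Osmr, 1.74 times for Stat3, 1.72 times for Cebpb, 1.07 times for Il6st and 0.937 times for Slc39a14.

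In edgeR's quasi-likelihood test of AL + NaIO3 against AL + PBS, 12 of 15612 genes (0.0769%) passed the call rule (adjusted p below 0.05 together with a change of 1.5-fold or more), and Lcn2 and Cebpd were among them. Since this contrast chose the members, nothing is read from that count. It fell to 0 genes on omission of AL + PBS replicate 1, 2 or 3, so that neither Lcn2 nor Cebpd was called then. Without AL + NaIO3 replicate 3 the count rose to 90 genes, and the members among them were Cebpd, Lcn2, Osmr, Serpina3n, Socs3 and Steap4. When all 12 libraries were fitted together, 177 of 15970 genes (1.11%) were called, 7 members among them, and DESeq2 called 446 of 17656 genes (2.53%) with 8 members.

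Against AL + NaIO3, the IF + NaIO3 libraries had lower means for all 10 members, and 9 members did not overlap between these groups, Slc39a14 being the exception. Of 15672 genes, 18.9% did not overlap in either direction, and since these levels chose the members nothing is read from the difference. The log2 fold changes of IF + NaIO3 against AL + NaIO3 were -4.81 ± 0.77 (SE) for Serpina3n, -4.68 ± 0.56 for Steap4, -3.77 ± 0.34 for Lcn2, -2.56 ± 0.22 for Cebpd and -2.53 ± 0.45 for Socs3. They were -1.86 ± 0.43 for Osmr, -1.27 ± 0.28 for Stat3, -1.13 ± 0.24 for Cebpb, -0.73 ± 0.30 for Il6st and -0.21 ± 0.17 for Slc39a14. Leaving out AL + NaIO3 replicate 3 gave -3.41 ± 0.20 for Serpina3n, -3.85 ± 0.26 for Steap4, -3.36 ± 0.21 for Lcn2, -2.29 ± 0.14 for Cebpd and -1.83 ± 0.23 for Socs3. The remaining values without it were -1.14 ± 0.19 for Osmr, -0.88 ± 0.15 for Stat3, -1.05 ± 0.24 for Cebpb, -0.27 ± 0.14 for Il6st and -0.025 ± 0.13 for Slc39a14, so all 10 stayed negative. edgeR called 6 of 15648 genes (0.0383%), with Lcn2 and Cebpd among them, a count from which again nothing is read. Without IF + NaIO3 replicate 1, 2 or 3 no member was called, without AL + NaIO3 replicate 1 only Cebpd and without AL + NaIO3 replicate 2 only Lcn2. Without AL + NaIO3 replicate 3 there were 75 calls with 6 members. The fit of all 12 libraries called 190 of 15970 genes (1.19%), with 8 members among them, and DESeq2 499 of 17002 genes (2.93%) with the same number of members.

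Measured from the AL + PBS mean instead, the IF + NaIO3 mean lay between 0.660 times (Serpina3n) and 1.21 times (Cebpd). For Serpina3n the log2 fold change was -0.60 ± 0.23 (SE) with a 95% interval of -1.10 to -0.099, and for Cebpd it was 0.27 ± 0.16 with an interval of -0.070 to 0.62. All 3 Steap4 libraries of IF + NaIO3 lay within the range of AL + PBS. Only Slc39a14 did not overlap between IF + NaIO3 and AL + PBS, being lower, where 17.8% of 15499 genes did not overlap in either direction. edgeR called 7 of 15419 genes (0.0454%) in this comparison and DESeq2 78 of 14382 (0.542%), with no member among either. The levels of both groups had a part in choosing the members, so these values too are a description.

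IF + PBS against AL + PBS, the diets in mice without injury, was a comparison that did not choose the members. The AL + PBS levels had a part in the choice, however, which favours low values in that group. Lcn2 was the member with the largest difference, with 5.83 ± 1.56 CPM (SD, n = 3) on IF and 4.05 ± 0.27 CPM on AL. Each IF + PBS library lay above each AL + PBS library, the closest pair being 4.34 and 4.27 CPM. The log2 fold change was 0.53 ± 0.24 (SE) with a 95% interval of 0.00037 to 1.06, which edgeR's quasi-likelihood test did not call (adjusted p = 0.293, unadjusted p = 0.0499). Its value lay between 0.31 and 0.71 over the fits that left out 1 library each, lowest without IF + PBS replicate 2. Lcn2 was the only member whose groups did not overlap, 1 of 10, and 21.8% of 15454 genes did not overlap in this comparison.

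The other 9 members had log2 fold changes between -0.18 (Serpina3n) and 0.25 (Steap4) in IF + PBS against AL + PBS, 8 of them negative, and edgeR's adjusted p ranged from 0.54 to 0.975. The intervals differ in what they allow. For Stat3 the 95% interval was -0.29 to 0.14, for Il6st -0.33 to 0.091 and for Slc39a14 -0.29 to 0.20, all of them narrower than a 1.5-fold change in either direction. Osmr (-0.40 to 0.27), Cebpd (-0.51 to 0.28), Cebpb (-0.57 to 0.38) and Socs3 (-0.54 to 0.50) were also within 1.5-fold. For Serpina3n (-0.68 to 0.31) and Steap4 (-1.04 to 1.55) larger differences cannot be told from none. edgeR called 0 of 15361 genes (0.0%) here, although 2623 had an unadjusted p under 0.05, DESeq2 called 167 of 14008 (1.19%) with no member among them, and leaving out IF + PBS replicate 1 gave 472 calls by edgeR, again without a member.

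IF + NaIO3 against IF + PBS asks what the injection did in fasted mice. The IF + NaIO3 levels had a part in choosing the members, which favours low values in that group. The p-values and intervals of this comparison carry that limit. Cebpd measured 13.3 ± 1.42 CPM (SD, n = 3) in IF + NaIO3 and 10.1 ± 1.72 CPM in IF + PBS. The groups overlapped, since IF + PBS replicate 3 at 12 CPM was above IF + NaIO3 replicate 3 at 11.6 CPM. Its log2 fold change was 0.40 ± 0.18 (SE) with a 95% interval of 0.00092 to 0.79 (adjusted p = 0.327 and unadjusted p = 0.0496 by edgeR), and it lay between 0.29 and 0.54 when 1 library at a time was left out. Lcn2 went the other way, at 4.42 ± 0.75 CPM after 5.83 ± 1.56 CPM, with a log2 fold change of -0.40 ± 0.26 (SE) and an interval of -0.96 to 0.17 (edgeR's adjusted p = 0.471).

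None of the 10 members was called in IF + NaIO3 against IF + PBS, and none had groups that did not overlap, where 20.9% of 15399 genes did not overlap. Steap4 had the widest interval, -1.69 to 0.47, and that of Serpina3n was -0.95 to 0.12. Closer bounds were found for 4 members, with -0.21 to 0.23 for Stat3, -0.30 to 0.22 for Il6st, -0.31 to 0.20 for Slc39a14 and -0.35 to 0.43 for Osmr. For Socs3 the interval was -0.44 to 0.67 and for Cebpb -0.67 to 0.35. edgeR called 0 of 15305 genes (0.0%), 2326 genes had an unadjusted p under 0.05, and DESeq2 called 80 of 10908 genes (0.733%) and no member. Leaving out IF + PBS replicate 1 gave 197 calls by edgeR, none of them a member. The difference between the response in AL mice and that in IF mice was not tested for the members, since it contains the contrasts that chose them.

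**Figure D3:**
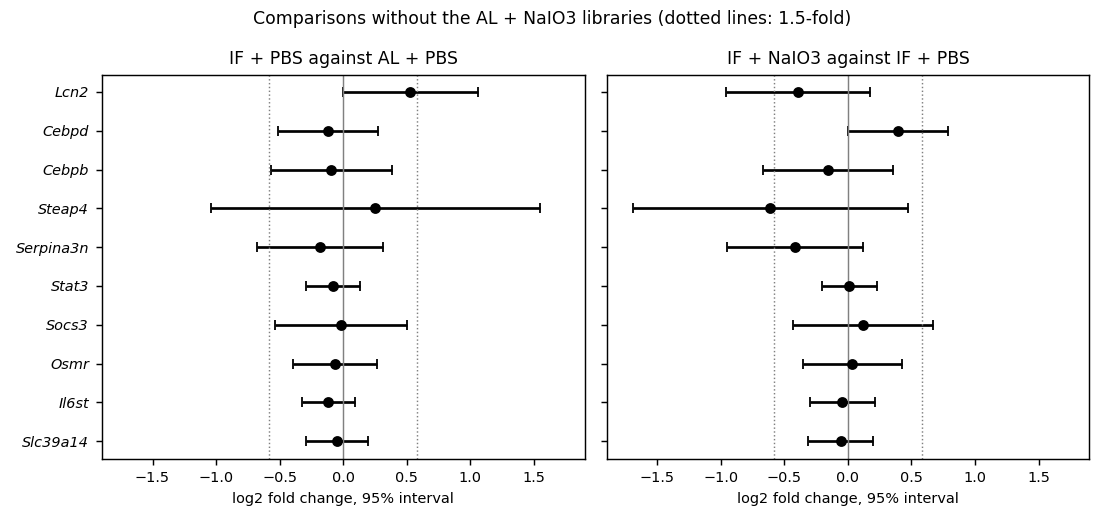
Log2 fold change (points) with its 95% interval (bars) from edgeR for the 10 genes in IF + PBS against AL + PBS and in IF + NaIO3 against IF + PBS. Dotted lines mark 1.5-fold, and the intervals of Stat3, Il6st, Slc39a14 and Osmr lie between them in both panels.

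Levels of different genes can be compared only per length, for which the FPKM values of the authors (reads per kilobase of gene, scaled to library size) were used. In AL + PBS the order of the group means was Stat3 at 13 FPKM, Il6st at 9.87, Slc39a14 at 4.66, Serpina3n at 4.14, Cebpb at 4.13, Lcn2 at 3.54, Cebpd at 2.40, Osmr at 1.93, Socs3 at 1.72 and Steap4 at 0.300 FPKM. The neighbours Slc39a14 to Serpina3n, Serpina3n to Cebpb, Cebpb to Lcn2, Cebpd to Osmr and Osmr to Socs3 overlapped in range, and the other 4 pairs of neighbours did not. In AL + NaIO3 the order was Serpina3n at 84.8 ± 96.4 FPKM (SD, n = 3), Lcn2 at 55.2 ± 26.4, Stat3 at 28.8 ± 13.7, Cebpd at 18.3 ± 7.05, Il6st at 15.4 ± 8.48, Socs3 at 11.2 ± 8.58, Cebpb at 7.98 ± 1.58, Osmr at 7.62 ± 5.84, Steap4 at 6.72 ± 5.63 and Slc39a14 at 5.14 ± 1.57 FPKM. Each pair of neighbours in that order overlapped in range. Over AL + NaIO3 replicates 1 and 2 alone Lcn2 came first at 40.2 FPKM, followed by Serpina3n at 29.2, Stat3 at 21.8, Cebpd at 14.3, Il6st at 10.5, Cebpb at 7.14, Socs3 at 6.25, Osmr at 4.29, Slc39a14 at 4.25 and Steap4 at 3.47 FPKM. In IF + NaIO3 the means ran from 11.6 FPKM for Stat3 and 8.38 for Il6st down to 0.225 for Steap4.

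The other genes of the pathway were counted in 9 lists that hold 117 genes besides the members, a gene in more than 1 list being counted once. The lists were chosen with earlier results of these data known. Their shares, medians and calls, here and below, are therefore a description and not independent evidence about the pathway. In AL + NaIO3 against AL + PBS, 90 of these were tested and 64 had a positive log2 fold change. Their median was 0.33 beside 0.014 over all genes tested, and 0.15 beside 0.0030 without AL + NaIO3 replicate 3. edgeR's test on the 6 libraries called none of the 90, while 29 (32.2%) had an unadjusted p under 0.05, beside 10.2% of all genes. The fit of 12 libraries called 10 of 91 as higher and DESeq2 17 of 112, where the shares of all genes called were 1.11% and 2.53%. Without AL + NaIO3 replicate 3, edgeR called 5 of the 90, which were A2m, Bcl3, C3, Cp and Gfap, all higher, beside 0.572% of all genes.

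In IF + NaIO3 against AL + NaIO3 the median of the other genes was -0.47 beside -0.013 over all genes, and -0.16 beside -0.0010 without AL + NaIO3 replicate 3. The fit of 6 libraries called 0, and 31 (34.4%) had an unadjusted p under 0.05, beside 11.7% of all genes. The fit of 12 libraries called 9 as lower and DESeq2 22, with 1.19% and 2.93% of all genes called. Without AL + NaIO3 replicate 3, 7 of 89 were called lower (A2m, Bcl3, C3, Cebpa, Cp, Gfap and Timp1), beside 0.476% of all genes. In IF + PBS against AL + PBS and in IF + NaIO3 against IF + PBS the medians were -0.056 and -0.0079, and edgeR called 0 of 89 genes in each. In each, 18 of the 89 (20.2%) had an unadjusted p under 0.05, near the shares of 17.1% and 15.2% of all genes, and DESeq2 called 2 and 1. In IF + NaIO3 against AL + PBS the median was -0.028, and 0 of 89 were called, with 9 (10.1%) at an unadjusted p under 0.05 beside 12.2% of all genes, and 0 called by DESeq2.

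Among the IL-6 family ligands, 6 of 10 had enough counts to be tested, and 5 of the 6 were higher in AL + NaIO3 than in AL + PBS, their log2 fold changes having a median of 0.92 (0.44 without AL + NaIO3 replicate 3), and none was called. Lif, leukemia inhibitory factor, moved most: it read 1.09, 1.35 and 0.459 CPM in AL + PBS, 2.02, 3.09 and 8.22 CPM in AL + NaIO3 and 0.374 to 0.896 CPM in IF + NaIO3. Its log2 fold change of 2.20 ± 0.64 (SE), or 1.39 ± 0.51 without replicate 3, was not called by edgeR (adjusted p = 0.312, and 0.0966 in the fit of 12 libraries). Cntf, ciliary neurotrophic factor, lay at 8.47, 9.56 and 23.7 CPM in AL + NaIO3 and 1.71 to 7.30 CPM in the other groups. Il6 itself stayed at no more than 0.269 CPM in any library. Osm was at 0 counts in 11 libraries and at 0.376 CPM in AL + NaIO3 replicate 3.

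Of the receptors beside Osmr and Il6st, 5 of 5 were tested and 3 were higher in AL + NaIO3, with a median log2 fold change of 0.44 that became 0.30 without replicate 3. Il6ra, the receptor chain that binds IL-6, read 0.930, 1.16 and 0.852 CPM in AL + PBS and 3.27, 2.59 and 8.22 CPM in AL + NaIO3, a log2 fold change of 2.26 ± 0.51 (SE; 1.57 ± 0.37 without replicate 3) that edgeR called in the fit of 12 libraries (adjusted p = 0.0315) and not in that of 6 (0.242). Il27ra, a receptor chain for IL-27, was at 0.320 to 0.725 CPM in AL + NaIO3 and at no more than 0.0962 CPM in AL + PBS, so no fold is given. Lifr and Cntfr, the chains for LIF and CNTF, had negative log2 fold changes, with 85.2 to 112 CPM for Lifr in AL + NaIO3 and 106 to 112 CPM in AL + PBS.

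The kinases and STAT factors other than Stat3 had log2 fold changes with a median of 0.26 (0.18 without replicate 3) in AL + NaIO3 against AL + PBS, 8 of 9 being positive. Jak3, a kinase mostly of blood cells, read 5.17, 10.4 and 24.4 CPM in AL + NaIO3 and 1.77 to 2.72 CPM in AL + PBS (log2 fold change 2.59 ± 0.55, SE, and 1.80 ± 0.355 without replicate 3), and edgeR called it in the fit of 12 libraries (adjusted p = 0.0296) but not in that of 6 (0.228). Jak1 and Jak2, the kinases of gp130, were at 129 to 144 and 46.8 to 53.4 CPM in AL + NaIO3, beside 120.5 to 138 and 44.6 to 52.7 CPM in AL + PBS. The inhibitors other than Socs3 had a median of -0.048, with 6 of 15 positive, and of -0.015 without replicate 3. Ptpn6, the phosphatase SHP-1 of blood cells, read 5.33, 4.72 and 11.8 CPM in AL + NaIO3 and 0.866 to 1.82 CPM in AL + PBS, a log2 fold change of 2.56 ± 0.49 (SE; 2.01 ± 0.38 without replicate 3; edgeR's adjusted p = 0.172 with 6 libraries and 0.0254 with 12).

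In the C/EBP family, 3 genes beside the members were tested and 1 was positive, with a median of -0.033, or -0.019 without AL + NaIO3 replicate 3. That gene was Cebpa, at 10.3, 8.17 and 23.7 CPM in AL + NaIO3 and 3.21 to 4.06 CPM in AL + PBS (log2 fold change 2.00 ± 0.42, SE, and 1.38 ± 0.24 without replicate 3), called by edgeR with 12 libraries (adjusted p = 0.0288) and not with 6 (0.215). Of 29 other acute-phase genes, most of them liver products, 11 were tested and 10 were positive, with a median log2 fold change of 1.06, or 0.68 without replicate 3. A2m, alpha-2-macroglobulin, read 30.7, 41.6 and 318 CPM in AL + NaIO3 and 16.0 to 17.4 CPM in AL + PBS, replicate 3 being far above the others, for a log2 fold change of 2.95 ± 0.84 (SE; 1.095 ± 0.16 without replicate 3; edgeR's adjusted p = 0.306, and 0.0565 with 12 libraries). The complement gene C3 and the copper protein gene Cp were called with 12 libraries, at 11.0 to 43.6 and 270 to 552 CPM in AL + NaIO3 beside 2.82 to 3.57 and 151 to 185 CPM in AL + PBS. The liver genes Hp and Saa3 stayed below 1 CPM in all 12 libraries, and of 5 hepatocyte genes Fgb was at 0 counts in each library, Alb at no more than 0.959 CPM, Apoa1 at no more than 0.449 CPM and Apoa2 at no more than 1.70 CPM. The fifth, Ttr, which the RPE also makes, had group means of 371 CPM (AL + NaIO3) to 972 CPM (IF + PBS). It carried the sum of this list, which was 353 to 392 CPM in AL + NaIO3 and 331 to 1188 CPM in the other groups.

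Of 18 tested STAT3 target genes other than Socs3 and Osmr, 16 were positive, with a median log2 fold change of 0.44, or 0.24 without replicate 3. Timp1, an inhibitor of matrix metalloproteinases, moved most: it read 13.1, 8.85 and 20.5 CPM in AL + NaIO3, 0 to 1.11 CPM in AL + PBS and 0.144 to 0.861 CPM in IF + NaIO3 (log2 fold change 4.54 ± 0.91, SE; 4.16 ± 0.805 without replicate 3; edgeR's adjusted p = 0.193, and 0.0282 with 12 libraries). Gfap, the filament protein of astrocytes and reactive Müller glia, read 112, 97.1 and 308 CPM in AL + NaIO3, 12.3 to 23.0 CPM in AL + PBS and 10.7 to 15.7 CPM in IF + NaIO3. Gfap, Bcl3, Irf1 and Timp1 were the 4 targets that edgeR called with 12 libraries, higher in AL + NaIO3 than in AL + PBS and lower in IF + NaIO3 than in AL + NaIO3. The summed level of the 9 Müller glia and astrocyte genes, a list without Gfap, was 4190 to 5149 CPM in AL + NaIO3 and 4250 to 5086 CPM in the other groups. Glul, for glutamine synthetase, gave the largest share of this sum, with 2090 to 2130 CPM in AL + NaIO3 and 2180 to 2840 CPM elsewhere. In 3 of the 9 genes all AL + NaIO3 libraries lay above the other 9 libraries, namely Vim, for the filament protein vimentin (218 to 329 against 112 to 140 CPM), Sox9, for a transcription factor (47.9 to 58.2 against 30 to 43.8 CPM), and Aqp4, for a water channel (216 to 305 against 123 to 212 CPM). The part of these cells in the results was not tested.

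Of 12 genes with Steap4 in the list of STEAP reductases and iron handling, 8 were positive in AL + NaIO3 against AL + PBS with a median of 0.26, which became 0.015 without replicate 3. Slc11a1, an iron transporter of phagocytes, moved most, at 5.07, 4.05 and 22.1 CPM in AL + NaIO3 and 2.16 to 3.18 CPM in AL + PBS (log2 fold change 2.06 ± 0.65, SE; 0.86 ± 0.31 without replicate 3; edgeR's adjusted p = 0.338). Hmox1, heme oxygenase-1, was called lower in IF + NaIO3 than in AL + NaIO3 in the fit of 12 libraries, at 1.41 to 3.00 beside 5.65 to 20.3 CPM. Of 12 tested ZIP transporters other than Slc39a14, 7 were positive with a median of 0.12, which turned to -0.0615 without replicate 3. Slc39a8, the nearest relative of Slc39a14, had the largest log2 fold change of the 12, 0.71 ± 0.42 (SE; 0.52 ± 0.42 without replicate 3; edgeR's adjusted p = 0.597).

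**Figure D4:**
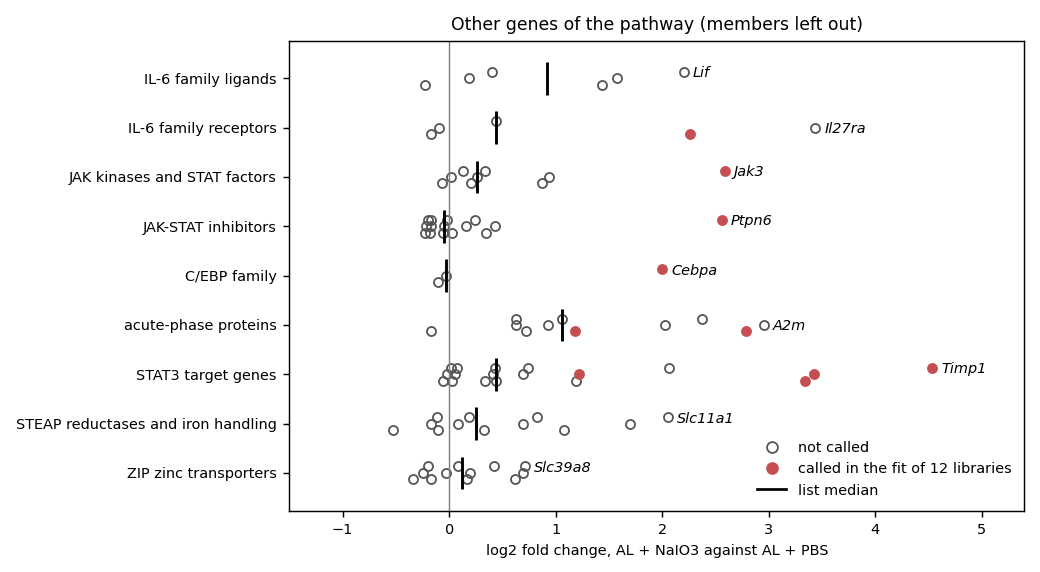
Log2 fold change in AL + NaIO3 against AL + PBS of the tested genes of each list, members left out, with the gene of the largest value named and a bar at the list median. Filled points are the 10 genes that edgeR called in the fit of 12 libraries, and the medians run from -0.048 for the inhibitors to 1.06 for the acute-phase proteins.

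The macrophage and microglia list moved with the members. All 13 of its genes were detected, 12 of them lay above the other 9 libraries in all 3 AL + NaIO3 libraries, and the sum of the list was 97.4 to 105 CPM in AL + PBS, 86.1 to 100.3 CPM in IF + PBS, 199 to 1026 CPM in AL + NaIO3 and 92.3 to 109.5 CPM in IF + NaIO3. The exception was P2ry12, at 2.63 to 4.65 CPM in AL + NaIO3 and 3.07 to 5.01 CPM in IF + NaIO3. Lyz2 alone ran from 34.2 to 578 CPM in AL + NaIO3 and so made up much of the highest sum. Without replicate 3 the AL + NaIO3 sums were 283 and 199 CPM. The order of these 2 libraries was that of Lcn2 (53.2 and 37.1 CPM) and Cebpb (15.0 and 11.2 CPM), and the reverse of the order in the other 8 members. Of the 5 choroid endothelium genes, Kdr, a receptor for VEGF, lay above the other 9 libraries in all AL + NaIO3 libraries (182 to 366 against 120 to 164 CPM), and the sum of that list was 222, 228 and 452 CPM in AL + NaIO3 and 153 to 196.5 CPM elsewhere. Of the 10 RPE genes, Rpe65, the isomerase of the visual cycle, and Rgr, an opsin of the RPE, lay below the other 9 libraries in all AL + NaIO3 libraries, at 39.6 to 55.2 against 58.6 to 145 CPM and at 143 to 219 against 223 to 652 CPM. Lrat, Ttr and Rdh5 also had lower means in AL + NaIO3 than in AL + PBS. Pmel, Tyr, Dct, Mlana and Best1 went the other way in their group means. Their means were 155 against 39.9 CPM for Pmel, 36.9 against 11.4 for Tyr and 357 against 167 for Dct. For Mlana they were 31.2 against 21.5 CPM, and for Best1 1.04 against 0.683 CPM. AL + NaIO3 libraries ran from 15.3 to 422 CPM for Pmel, 6.75 to 94.9 for Tyr, 134 to 776 for Dct and 12.2 to 68.8 for Mlana. In AL + PBS the ranges were 28.3 to 51.3, 10.2 to 12.4, 156 to 183 and 15.7 to 29.5 CPM. For Pmel, Tyr, Dct and Mlana the lowest AL + NaIO3 library thus lay below AL + PBS. The higher means of these genes were carried by the highest AL + NaIO3 library. The sum of the RPE list was 920, 756 and 2117 CPM in AL + NaIO3 and 786 to 2455 CPM elsewhere. The part of these cells in the levels of the 10 genes was not tested.

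The genes whose profile over the 12 libraries lay nearest to that of Lcn2 were Gfap, Cebpd, Serpina3n, the interferon-induced GTPase gene Gbp2 and the complement gene C4b. Their root mean square difference from Lcn2 was 0.49, 0.55, 0.57, 0.60 and 0.61 on the log2 CPM scale, after each gene was centred on its own mean, among 14270 genes ranked. Nearest to Cebpd were the Fc receptor gene Fcgr1, the interferon-induced Oas1a, Socs3, the complement gene C1qb and the MHC class I gene H2-Q4, at 0.29, 0.32, 0.33, 0.36 and 0.36. With a prior count of 0.5 in place of 2, 4 of the 5 genes stayed nearest to Lcn2 and all 5 to Cebpd. C1qb is also 1 of the 13 macrophage and microglia genes, and the 12 points share the libraries and the high replicate 3. Cebpd, Serpina3n and Socs3 are members, chosen by levels that also shape this distance, so nothing is read from their nearness.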

How the data were processed

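RNA-seq was available for 12 libraries, 3 in each of AL + PBS, IF + PBS, AL + NaIO3 and IF + NaIO3, grouped by their labels. The authors selected poly-A RNA, prepared stranded libraries and sequenced 150-base reads. Their processing notes list HISAT2, StringTie, DESeq2 and edgeR, and the counting tool and its use of strand are not given in the sources used here. The deposited counts are whole reads per gene without normalization, and the deposited FPKM values were divided by the authors by gene length and library size. A table of the authors' own fold changes and p-values was not used. The methods name GRCm39, but 21199 of 21221 genes matched by symbol overlapped their RefSeq position on GRCm38.p6, so coordinates are given on GRCm38.

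Counts were scaled by TMM, filtered with filterByExpr and tested with edgeR 4.0.16 in R 4.3.3 (quasi-likelihood test on the 6 libraries of a pair of groups, Benjamini-Hochberg adjustment over all genes tested, called at 0.05 and 1.5-fold). Totals were between 26364665 and 43046950 counts per library, and floors of 3 counts cover counting error only. The 95% intervals of fold changes come from the SE of the same edgeR fit as the p-values and so reflect the spread between libraries. The script was tested on simulated data. The methods pool both eye cups of a mouse for qPCR and give n = 3 for RNA-seq, but neither they nor the labels say that the RNA-seq replicates are separate mice, so p-values measure only the spread between these samples, which may be technical. No 2 libraries of a group agreed within sampling noise (chi-square per gene 13.2 to 238). Shares of non-overlapping genes use genes with at least 10 counts in 3 libraries.

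Members and lists were chosen with earlier results of these data known. All members were named, and from each list the genes called in any comparison and the non-member with the largest change in AL + NaIO3 against AL + PBS, as well as the 5 genes nearest to Lcn2 and to Cebpd in profile (log2 CPM, prior count 2, mean of at least 1 CPM). Other genes were named after their values were seen. Alternatives were DESeq2 1.42.0, upper quartile scaling, 2 other filters on low counts, 12 libraries in 1 fit, a replicate block, no fold change minimum, a prior count of 0.5 and leaving out each library.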

Additional observations from a re-analysis of the deposited data

Results flagged for a closer look

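For Lcn2, Steap4 and Serpina3n, each AL + NaIO3 library lay above the AL + PBS mean and each IF + NaIO3 library below the IF + PBS mean. The log2 ratio of NaIO3 to PBS means was 3.89 for Lcn2 on AL and -0.40 on IF, a difference of 4.29. It was 4.32 and -0.62 for Steap4, a difference of 4.94, and 4.20 and -0.42 for Serpina3n, a difference of 4.62. Without AL + NaIO3 replicate 3 the ratios on AL were 3.48, 3.49 and 2.80 for Lcn2, Steap4 and Serpina3n, and the differences 3.88, 4.11 and 3.22. These differences were not tested, since the AL + NaIO3 and IF + NaIO3 levels chose the members, and the negative IF values were within overlapping groups. AL + NaIO3 replicate 3, with the highest macrophage and stroma sums of the 12 libraries, was the highest library for all 3 genes.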

How the results depend on the processing

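With 3 libraries per group, counts of called genes moved with the settings, and the cause was not tested. For IF + PBS against AL + PBS, with 0 calls, DESeq2 gave 167 and single omissions 1 to 472. For IF + NaIO3 against IF + PBS, with 0 calls, DESeq2 gave 80, no filter 2 and omissions 0 to 197. For AL + NaIO3 against AL + PBS (12 genes, 2 members), DESeq2 gave 446 and 8, no filter 19 genes, the fit of 12 libraries 177 and 7, and omissions 0 to 90 genes and 0 to 6 members. For IF + NaIO3 against AL + NaIO3 (6 genes, 2 members), the values were 499 and 8 with DESeq2, 16 genes without a filter, 190 and 8 with 12 libraries, and 0 to 75 genes and 0 to 6 members under omissions. For IF + NaIO3 against AL + PBS (7 genes), DESeq2 gave 78, 12 libraries 0 and omissions 3 to 55.

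In the tested comparisons, 22 alternative values for the members changed sign and 218 kept it, and none was called. For IF + PBS against AL + PBS the omissions gave log2 fold changes of -0.26 to 0.61 for Steap4, -0.29 to 0.032 for Cebpb, -0.16 to 0.12 for Socs3, -0.13 to 0.026 for Osmr and -0.12 to 0.0053 for Slc39a14. For IF + NaIO3 against IF + PBS they gave -0.048 to 0.060 for Stat3, which upper quartile scaling put at -0.0021, -0.017 to 0.27 for Socs3, -0.054 to 0.15 for Osmr, -0.14 to 0.045 for Il6st, -0.32 to 0.044 for Cebpb and -0.10 to 0.013 for Slc39a14. In the comparisons that chose the members, single omissions turned the sign of Slc39a14 (-0.094 without AL + NaIO3 replicate 3, against AL + PBS) and, in IF + NaIO3 against AL + PBS, of Socs3 (-0.045 and -0.031) and Osmr (0.028 and 0.089).

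The replicate numbers did not pair the libraries: same-numbered libraries had correlations of deviations between -0.10 and 0.14. With the replicate number as a block, 5, 0, 28, 28 and 13 genes were called in IF + PBS against AL + PBS, IF + NaIO3 against IF + PBS, AL + NaIO3 against AL + PBS, IF + NaIO3 against AL + NaIO3 and IF + NaIO3 against AL + PBS, with 0, 0, 5, 4 and 0 members among them.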
